A study of Mus musculus with 173 samples.

Results

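Huntingtin, the protein whose expanded glutamine tract causes Huntington's disease, and 6 proteins that bind it were followed at the RNA level across 11 tissues of 6-month-old mice. The genes were Htt, Hap1, Hip1, Hip1r, Zdhhc17, F8a and Sh3gl3, chosen by name for their known ties to huntingtin, and 7 of the 7 were found among the 38561 genes of the deposited tables. The study sampled 16 C57BL/6 mice: 8 heterozygous Q175 knock-in mice (4 females, 4 males), whose 1 knock-in Htt allele carries a CAG tract with a labelled length of 175, and 8 wild-type mice (4 females, 4 males). PolyA RNA from brainstem, cerebellum, hippocampus, hypothalamus/thalamus, corpus callosum, brown adipose, gonadal adipose, intestinal adipose, gastrocnemius, heart and skin gave libraries of 27.98 to 48.02 M counts (M for mega). Each group had 8 libraries per tissue, apart from 7 wild-type libraries in gonadal adipose (3 females) and 6 in skin (3 females, 3 males).

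By the labels, Q175 animals lived with others of their own line, whereas the controls used here lived with animals of the Q20 line, so genotype and housing cannot be told apart. The knock-in does not remove the Htt gene, so the Htt level does not check the genotype labels. The sequence of the altered allele was not examined here. Abhd1, which an earlier analysis of these data used for that check, lay in the wild-type range in 10 of 11 tissues of 1 Q175 animal (Q175 male 3) and in 1 tissue of another (Q175 female 1). Animals are named here by their replicate number in brown adipose, since the replicate numbers of other tissues follow another order. In bulk tissue, fewer cells of a type and less RNA per cell cannot be told apart. Each library held the markers of its labelled tissue, such as 40180 to 57750 FPKM of summed skeletal muscle markers in gastrocnemius and 3501 to 6107 FPKM of brown adipocyte markers in brown adipose, and none of those lists had a marker at 0 throughout its own tissue. Some libraries had counts that fell with transcript length, with slopes down to -0.323 (log2 per doubling of length), and the steepest are named beside the results they touch; the Htt transcript is 13215 bases long.

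Huntingtin is a large scaffold that links vesicles to microtubule motors, and it is present in most cell types. Hap1 couples it to the dynein and kinesin machinery and is known for its abundance in the hypothalamus. Hip1 and Hip1r are adaptors between clathrin coats and actin, Zdhhc17 is a palmitoyltransferase that attaches lipid to huntingtin, F8a encodes HAP40, which forms a stable complex with huntingtin, and Sh3gl3 encodes endophilin A3, a membrane-bending protein that binds the proline-rich stretch beside the glutamine tract.

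The start of the Htt coding sequence is shown because the knock-in allele is altered at this place, where its CAG tract is long. In the mouse reference (GRCm38, chr5:34761907-34761999, plus strand, exon 1 of 67) the capitals mark the glutamine tract, 7 codons of which 6 are CAG and 1 is CAA, followed by proline codons.
Htt: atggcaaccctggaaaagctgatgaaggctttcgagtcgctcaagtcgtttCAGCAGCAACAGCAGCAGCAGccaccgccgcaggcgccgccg

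The 250 bases before the start sites of Htt and Hap1 are shown as those of the gene the study altered and of the partner with the widest span of levels. Both come from RefSeq (GRCm38.p6): Htt at chr5:34761490-34761739 on the plus strand and Hap1 at chr11:100356129-100356378 on the minus strand. Capitals mark GC boxes (GGGCGG) and the cyclic AMP response element (TGACGTCA), each searched on both strands, with overlapping GC boxes printed as 1 run.
Htt: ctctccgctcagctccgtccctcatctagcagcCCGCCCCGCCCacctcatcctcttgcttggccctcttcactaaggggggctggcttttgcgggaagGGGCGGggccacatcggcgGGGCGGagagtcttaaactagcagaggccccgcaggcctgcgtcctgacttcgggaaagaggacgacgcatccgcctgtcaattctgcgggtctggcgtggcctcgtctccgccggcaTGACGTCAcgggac
Hap1: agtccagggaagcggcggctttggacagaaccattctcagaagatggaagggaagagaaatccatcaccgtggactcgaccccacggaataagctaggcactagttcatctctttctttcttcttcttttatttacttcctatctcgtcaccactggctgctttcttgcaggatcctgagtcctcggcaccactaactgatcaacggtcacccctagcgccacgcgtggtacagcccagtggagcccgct

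The Htt window held 4 GC boxes, 1 response element, 22 CpG dinucleotides and 66.4% G and C. The Hap1 window held neither of these motifs, and the CCAAT box, the TATA box and the E-box were not found there either, with 12 CpG dinucleotides and 52.8% G and C. Over 32851 windows of the same length, 32.7% held a GC box, 1.55% held the response element, and the median was 52.4% G and C with 6 CpG dinucleotides.

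Levels were compared between tissues in the wild-type libraries, on the deposited FPKM scale, which is per length of transcript and so can be set side by side between genes. Htt was highest in cerebellum, at 25.3 ± 1.76 FPKM (SD, n = 8), and lowest in gastrocnemius, at 1.89 ± 0.175 FPKM (SD, n = 8), a span of 13.4-fold. The 5 brain regions, with means of 12.8 to 25.3 FPKM, stood above each of the peripheral tissues, whose means ran from 1.89 to 8.13 FPKM. Within the brain the order of the means was cerebellum, hippocampus, hypothalamus/thalamus, brainstem and corpus callosum, followed by intestinal adipose, gonadal adipose, skin, brown adipose, heart and gastrocnemius.

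**Figure D1:**
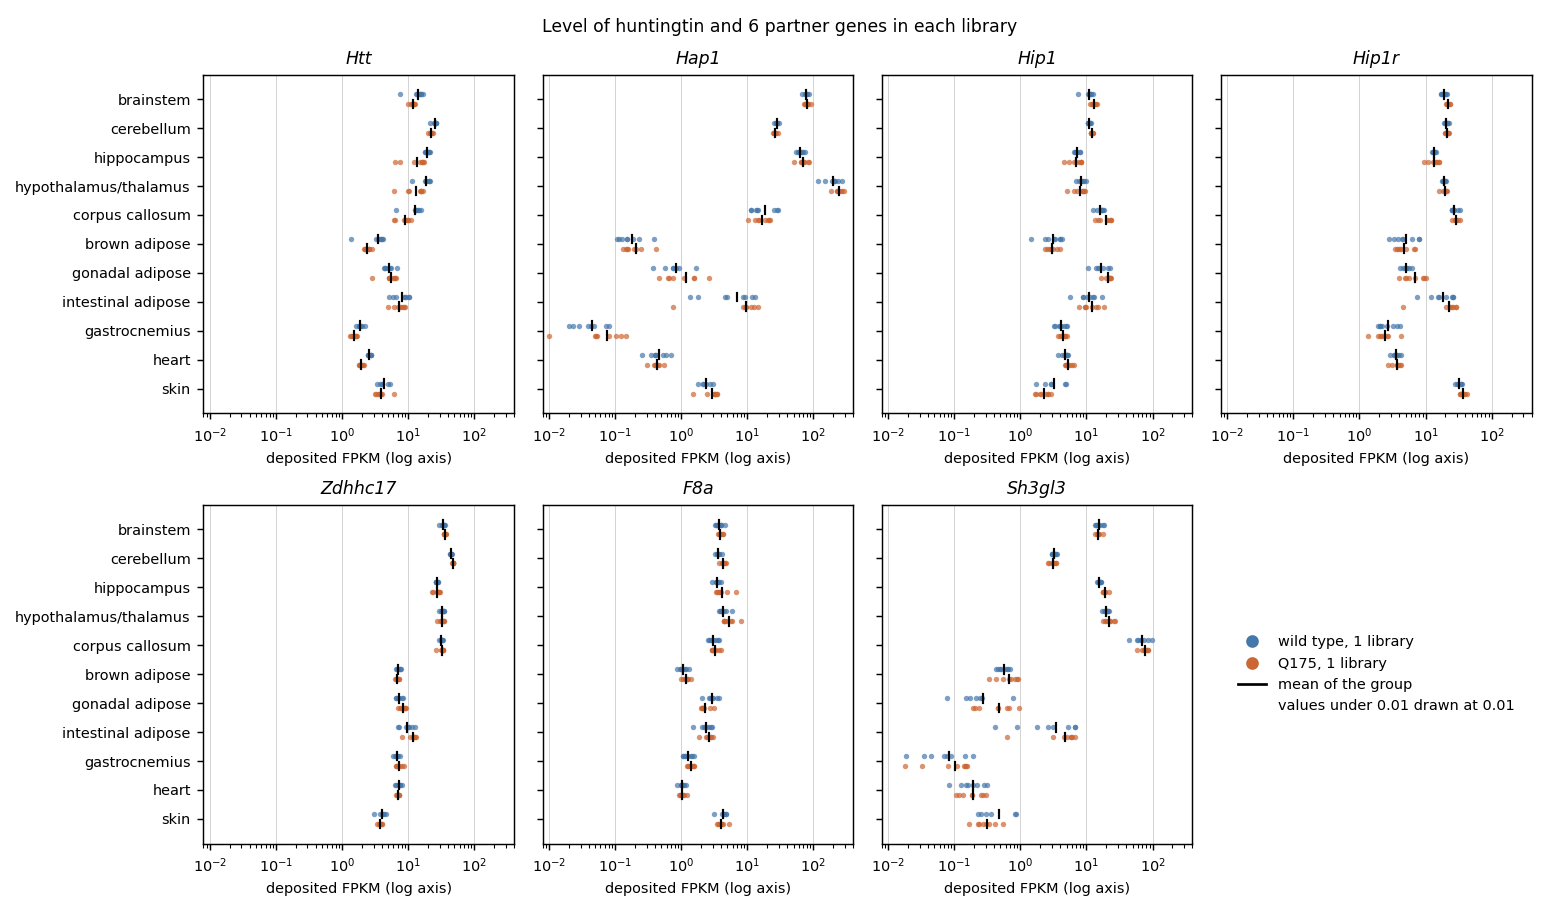
Deposited FPKM (log axis) of huntingtin and 6 partner genes in each library, by tissue; blue points are wild-type libraries, orange points Q175 libraries, and black ticks group means. Htt spans 13.4-fold between tissue means in wild type, while Hap1 runs from 198 FPKM in hypothalamus/thalamus to 0.0442 FPKM in gastrocnemius.

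Neighbours in each order were tested in the wild-type libraries by edgeR's quasi-likelihood test on counts, with the animal as a term, and by limma on log2(FPKM + 0.1). The tests gave opposite signs for several neighbours; the cause was not tested. For Htt, 3 of 10 neighbouring pairs differed in both tests, 2 in neither and 1 with opposite signs. Over all genes, edgeR called 61.3% of the same contrasts. This share and those given below count edgeR calls alone, in either direction, whereas the counts of pairs need both tests. Each order was taken from the same wild-type means, so neighbours are a gene's closest tissues by construction. A count below the share is therefore not a result about the gene. Hippocampus and hypothalamus/thalamus did not differ beyond their spread (edgeR quasi-likelihood adjusted p = 0.19), nor did brainstem and corpus callosum (edgeR quasi-likelihood adjusted p = 0.14). At the top, cerebellum over hippocampus was called by limma (adjusted p = 0.016) but not by edgeR (adjusted p = 0.2). At the bottom, heart over gastrocnemius was likewise called by limma (adjusted p = 0.0045) but not by edgeR (adjusted p = 0.071). Skin over brown adipose was -0.51 in edgeR (log2, adjusted p = 0.00031) and 0.38 in limma (adjusted p = 0.018). The step from corpus callosum down to intestinal adipose was 0.71 ± 0.12 (log2, SE), with an edgeR quasi-likelihood adjusted p of 1.1e-07.

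Hap1 was the most unevenly distributed of the 7 genes. Its wild-type mean was 198 ± 47.04 FPKM (SD, n = 8) in hypothalamus/thalamus, 77.4 in brainstem, 63.5 in hippocampus, 27.8 in cerebellum and 18.5 in corpus callosum. Outside the brain it reached 6.88 FPKM in intestinal adipose and 2.36 in skin, and it lay at 0.0442 FPKM in gastrocnemius, where the 8 libraries held 1 to 8 counts. Both tests called 7 of 10 neighbouring pairs in this order, against an edgeR background of 63.9% of contrasts. Brainstem and hippocampus were the pair that neither test called (edgeR quasi-likelihood adjusted p = 0.29).

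Among the 8 wild-type hypothalamus/thalamus libraries, Hap1 ran from 117 to 266 FPKM. The lowest 2 libraries, WT male 2 at 117 and WT male 4 at 148 FPKM, also held the most oligodendrocyte transcripts (summed markers 4496 and 4422 FPKM). The other 14 libraries of this region, Q175 included, had sums below these; the part of this difference in makeup in the Hap1 level was not tested.

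Sh3gl3 was the other partner with a steep gradient. Its highest wild-type level was in corpus callosum, a white matter tract, at 69.1 ± 16.7 FPKM (SD, n = 8), then 19.9 in hypothalamus/thalamus, 15.7 in hippocampus and 15.5 in brainstem. Cerebellum, at 3.24 ± 0.191 FPKM (SD, n = 8), was far below the other brain regions and beside intestinal adipose at 3.45 ± 2.51 (edgeR quasi-likelihood adjusted p = 0.76). Gastrocnemius was lowest at 0.0842 FPKM, from 1 to 11 counts per library. Both tests called 4 of 10 neighbouring pairs, with an edgeR background of 69%, and the step from corpus callosum to hypothalamus/thalamus was 1.84 ± 0.26 (log2, SE; edgeR quasi-likelihood adjusted p = 6.7e-09).

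Zdhhc17 followed the brain-high pattern of Htt with less spread. Its wild-type means were 44.6 ± 0.691 FPKM (SD, n = 8) in cerebellum, 33.4 in brainstem, 32.7 in hypothalamus/thalamus, 31.8 in corpus callosum and 27.3 in hippocampus. The peripheral tissues lay between 3.98 FPKM in skin and 9.72 in intestinal adipose. Brainstem, hypothalamus/thalamus and corpus callosum were not told apart in this order, and both tests called 5 of 10 neighbouring pairs, against an edgeR background of 64.1%. For 2 pairs the tests had opposite signs. In 1 of them, gonadal adipose over heart, edgeR gave -0.86 (log2, quasi-likelihood adjusted p = 4e-20) and limma on FPKM 0.02 (adjusted p = 0.85).

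The clathrin adaptors had other patterns. Hip1 was highest in gonadal adipose, at 16.5 ± 4.15 FPKM (SD, n = 7), and corpus callosum, at 16.3 ± 1.92 (SD, n = 8), which did not differ beyond their spread (edgeR quasi-likelihood adjusted p = 0.13). Its mean FPKM was lowest in brown adipose, at 3.15. On counts, Hip1 in skin lay below brown adipose by -0.89 ± 0.16 (log2, SE, edgeR quasi-likelihood adjusted p = 1.7e-06). For the same pair limma on FPKM gave 0.02 (adjusted p = 0.92). Hip1r was highest in skin, at 32.2 ± 3.24 FPKM (SD, n = 6), then corpus callosum at 27.2, with gastrocnemius lowest at 2.72. Both tests called 2 of 10 neighbouring pairs for each adaptor, with edgeR backgrounds of 68.5% for the order of Hip1 and 68.7% for that of Hip1r. For each adaptor 2 pairs had opposite signs in the tests. Cerebellum, hypothalamus/thalamus, brainstem and intestinal adipose, at 18.5 to 20.6 FPKM, formed a run of Hip1r levels with no called neighbour.

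F8a was the flattest and among the lowest, with a span of 4.17-fold. Wild-type means ran from 4.33 ± 0.665 FPKM (SD, n = 8) in hypothalamus/thalamus and 4.32 in skin to 1.07 in brown adipose and 1.04 in heart. Both tests called only the step from gonadal to intestinal adipose among its 10 neighbouring pairs, where edgeR called 70.4% of contrasts over all genes. For intestinal adipose over gastrocnemius the signs were opposite. There edgeR gave -0.44 (log2, quasi-likelihood adjusted p = 7.8e-05) and limma on FPKM 0.84 (adjusted p = 6.5e-12). The 7 genes did not share 1 pattern. Across the 11 wild-type means the correlation of log2(FPKM + 0.1) was 0.94 for Htt with Hap1, 0.90 for Htt with Zdhhc17 and 0.36 for Hip1 with Hip1r, over points that share animals and libraries.

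The genes whose wild-type pattern over the 11 tissues was most like each of the 7, among 15929 genes compared, were as follows, as a description over 11 points. For Htt they were Zfp738 (Pearson r = 0.999), Nsd2 (0.990) and Smpd4 (0.989), each highest in cerebellum and lowest in gastrocnemius. For Hap1 they were Trp53bp1, Pdzd8 and Spin1 (0.990, 0.990 and 0.983), and for Hip1 they were Gnb4, Gstm1 and Zfp275 (0.940, 0.937 and 0.897). For Hip1r they were Sapcd2, Smarca5 and Rad54b (0.978, 0.972 and 0.968), for Zdhhc17 the potassium channel gene Kcna2, Efr3b and the phosphodiesterase gene Pde10a (0.989, 0.988 and 0.983), and for F8a Dmap1, Cc2d1a and Taf11 (0.986, 0.983 and 0.982). For Sh3gl3 they were P2ry12, a microglial receptor, Mroh7 and Sst, the somatostatin gene (0.971, 0.970 and 0.969). In the Q175 means Zfp738, Trp53bp1 and Kcna2 again ranked 1 for Htt, Hap1 and Zdhhc17, while Smarca5 fell to place 351 for Hip1r.

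The change in Q175 was tested in each tissue by edgeR's quasi-likelihood test with sex as a term, on counts scaled within the tissue (the counts-per-million scale, CPM, with trimmed-mean scaling). The p-values were adjusted by Benjamini-Hochberg within each tissue. A change is called at an adjusted p below 0.05. Counts of libraries outside the range of the other group are given below as a description and carry no share over all genes. Of 75 gene and tissue pairs tested, 10 were called: 4 for Htt, each lower in Q175, and 6 of 64 (9.38%) for the partners, 5 higher and 1 lower. Hap1 and Sh3gl3 had too few counts to be tested in gastrocnemius.

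Read against the share of genes called in the same tissue, the counts differ in weight. Cerebellum had 4 of the 7 genes called where 16.1% of genes were, hippocampus 2 where 4.56% were, brainstem 1 where 3.07% were, and gonadal adipose 1 where 32.1% were. Heart and gastrocnemius had 1 each, Htt, where 0.0549% and 0.0213% of genes were called, which is 8 and 3 genes. None of the 7 was called in hypothalamus/thalamus (0.574% of genes called), corpus callosum (0.0544%), brown adipose (5.41%), skin (6.53%) or intestinal adipose (0.0%). In those 5 tissues 2, 1, 1, 2 and 1 of the 7 had an unadjusted p below 0.05, and DESeq2 called 1, in corpus callosum. In intestinal adipose 1297 genes had an unadjusted p below 0.05 and DESeq2 called 10.

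**Figure D2:**
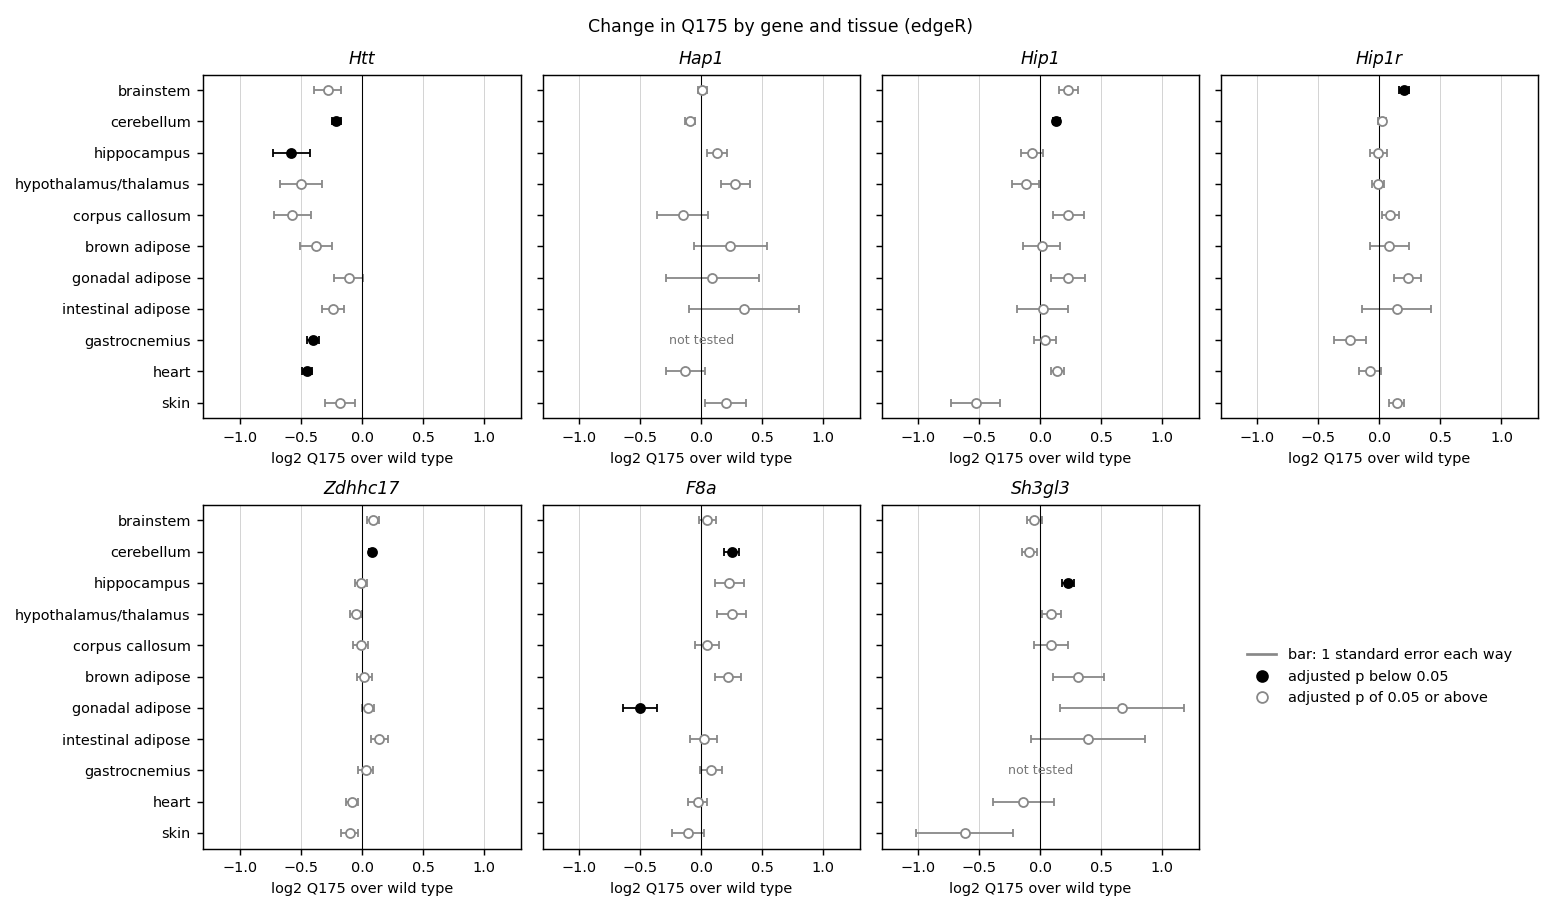
Log2 change in Q175 over wild type for each gene and tissue from edgeR's quasi-likelihood test; bars are 1 standard error each way, filled points have an adjusted p below 0.05. The Htt points lie left of 0 in 11 of 11 tissues, from -0.58 in hippocampus to -0.11 in gonadal adipose; the partners scatter around 0.

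Htt, which encodes huntingtin, was lower in Q175 in 11 of 11 tissues, and its mean change over the tissues was -0.35 ± 0.05 (log2, SE), a fall by 21.3%, with an adjusted p of 3.1e-08 in limma-voom with the animal as a random effect. The correlation of libraries of the same animal was set at 0.03 for all genes, so that p-value treats them as nearly independent. Over all genes, 2.67% had a mean change called in that fit. Whether the size of the Htt change differed between tissues depended on the fit, in a test that called 42% of genes. The limma-voom adjusted p was 0.094, but limma on log2(FPKM + 1) gave 0.039, and limma-voom gave 0.027 without the animal WT male 1 and 0.042 without the animal WT female 3.

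In heart, wild-type Htt was 26.7 at its lowest, 30.7 at the median and 31.5 CPM at its highest, against 19.9, 22.2 and 23.8 CPM in Q175. The groups did not overlap, with 8 of 8 Q175 hearts below each wild-type heart. The change was -0.45 ± 0.04 (log2, SE; edgeR quasi-likelihood adjusted p = 1.4e-05). Summed heart muscle markers overlapped between the groups, at 14290 to 17630 FPKM in wild type and 15850 to 19880 in Q175.

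In gastrocnemius, a limb muscle, wild-type Htt was 19.9, 22.3 and 25.7 CPM (lowest, median, highest), against 14.2, 17.4 and 18.5 CPM in Q175. Again 8 of 8 Q175 libraries were below each wild-type library, with the 4 Q175 females at 14.2 to 16.8 CPM below the 4 Q175 males. The change was -0.40 ± 0.05 (log2, SE; edgeR quasi-likelihood adjusted p = 0.0019). The call was lost in limma on log2(FPKM + 1), where the change was -0.20 with an adjusted p of 0.25, on a scale that shrinks changes of low values. It was also lost without the sex term (-0.40, edgeR adjusted p = 0.07) and with the library code as a term (-0.40, edgeR adjusted p = 0.1).

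In hippocampus, wild-type Htt was 209, 236 and 255 CPM, against 80.9, 182 and 206 CPM in Q175, and 8 of 8 Q175 libraries lay below each wild-type library. The change was -0.58 ± 0.15 (log2, SE; edgeR quasi-likelihood adjusted p = 0.039). The lowest 2 Q175 libraries, Q175 female 4 at 80.9 and Q175 female 1 at 93.2 CPM, had counts that fell with transcript length, with slopes of -0.323 and -0.234 (log2 per doubling). Without these 2 the change was -0.36 ± 0.07 (log2, SE) with an adjusted p of 0.0064. Leaving out 1 library at a time kept the call in 3 of 16 fits, with adjusted p from 0.0087 to 0.08, and the call was also lost in limma on log2(FPKM + 1), at 0.051. In edgeR it was lost without the filter on low counts (adjusted p = 0.086), without the sex term (0.064) and with the library code as a term (0.11), and kept with the length trend removed; DESeq2 kept it (adjusted p = 0.005). Without Q175 male 3, the animal with Abhd1 in the wild-type range, the change was -0.58 ± 0.16 and not called (adjusted p = 0.062).

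In cerebellum, wild-type Htt was 243, 298 and 306 CPM, against 228, 254 and 270 CPM in Q175. The ranges overlapped through 1 wild-type library, WT male 1 at 243 CPM, while the other 7 lay between 292 and 306 CPM. The change was -0.21 ± 0.04 (log2, SE; edgeR quasi-likelihood adjusted p = 0.0018). Summed cerebellar neuron markers were also lower in Q175 without overlap, at 1585 to 1679 FPKM against 1741 to 1891 in wild type, as were oligodendrocyte markers, at 1265 to 1756 against 1847 to 2237. Their part in the Htt change, and in the cerebellar changes of Hip1, Zdhhc17 and F8a given below, was not tested.

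In the other 7 tissues Htt was lower without a called change. The values were -0.57 ± 0.15 in corpus callosum, -0.50 ± 0.17 in hypothalamus/thalamus, -0.38 ± 0.13 in brown adipose and -0.28 ± 0.11 in brainstem (log2, SE), with edgeR quasi-likelihood adjusted p of 0.21, 0.22, 0.12 and 0.27. Intestinal adipose (-0.24 ± 0.09), skin (-0.18 ± 0.12) and gonadal adipose (-0.11 ± 0.12) had adjusted p of 0.61, 0.35 and 0.49. In each of the first 4 tissues and in intestinal adipose, 8 of 8 Q175 libraries were below the wild-type median, though the ranges overlapped. In gonadal adipose the 4 Q175 females (35.11 to 61.34 CPM) were below the wild-type median of 64.19 CPM and the 4 Q175 males (64.23 to 68.44 CPM), whose libraries held epididymal transcripts, were above it. The lowest, Q175 female 2, fell with length (slope -0.123).

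Libraries that fell with length lay at the low end of Htt in several of these tissues. In hypothalamus/thalamus, Q175 female 4 (slope -0.322) held the lowest Htt, 77.8 CPM, and without the 4 libraries that fell with length (Q175 female 4, Q175 female 2, Q175 male 1 and WT male 1) the change was -0.32 ± 0.04 (log2, SE; edgeR quasi-likelihood adjusted p = 0.0032). In brown adipose, WT male 1 (slope -0.244) was at 17.9 CPM, below each Q175 library, and without it the change was called (-0.49 on the log2 scale, edgeR quasi-likelihood adjusted p = 0.002). The other 15 fits that left out 1 library there did not call it (edgeR adjusted p up to 0.25). In brainstem, WT female 3 (slope -0.243) was lowest at 96.0 CPM, and without it the change was -0.37 (edgeR quasi-likelihood adjusted p = 0.0027). Again the other 15 such fits did not call it (edgeR adjusted p up to 0.37). In corpus callosum, leaving out the 3 libraries that fell with length (Q175 female 2, Q175 male 4 and WT female 3) gave -0.52 ± 0.07 (edgeR quasi-likelihood adjusted p = 0.072). The hypothalamus/thalamus and corpus callosum exclusions were chosen after the data had been seen. Those in brown adipose and brainstem were picked from the fits that left out 1 library at a time. DESeq2 called the corpus callosum change (-0.57, adjusted p = 0.03).

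**Figure D3:**
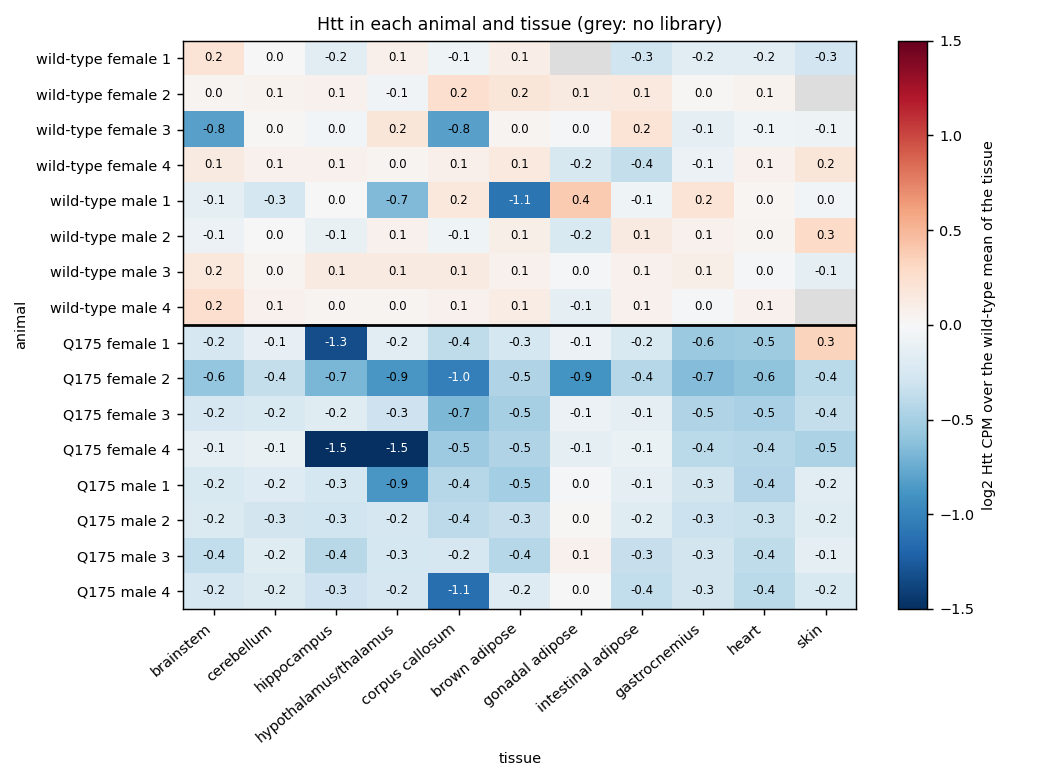
Log2 of Htt CPM over the wild-type mean of the same tissue, for each animal (rows) and tissue (columns); grey cells have no library. Each Q175 animal was below the wild-type median in 10 or 11 of 11 tissues, and the skin of Q175 female 1 is the 1 Q175 cell above each wild-type library of its tissue.

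Across animals the lower Htt was shared. Of 88 Q175 libraries, 37 lay below each wild-type library of their tissue and 1 lay above, the skin of Q175 female 1 at 64.7 CPM. Each of the 8 Q175 animals was below the wild-type median in 10 or 11 of its 11 tissues. Q175 female 2 was below each wild-type library in 9 tissues, more than the 3 to 5 tissues of the other 7 animals. Q175 male 3, whose Abhd1 was in the wild-type range, was below the wild-type median of Htt in 10 tissues. For the partners, of 80 or 88 Q175 libraries, 3 (F8a) to 9 (Hip1 and Hip1r) lay below each wild-type library. From 11 (Hap1) to 27 (Hip1) lay above. These counts are a description without a test and carry no share over all genes.

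**Figure D4:**
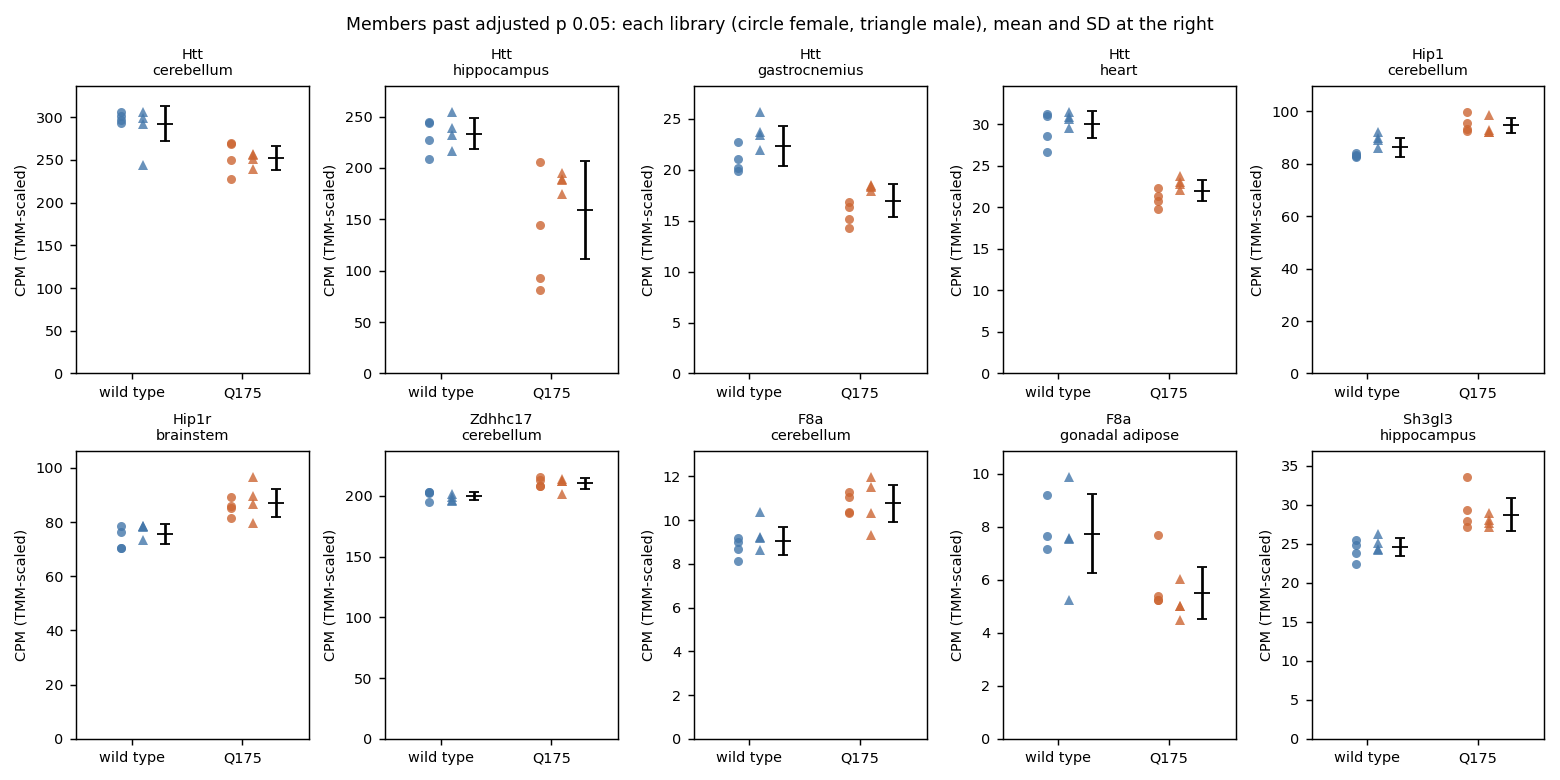
CPM of each library for the 10 called changes, circles for females and triangles for males, with the mean and SD to the right of each group; axes start at 0. Htt in hippocampus, gastrocnemius and heart, Hip1r in brainstem and Sh3gl3 in hippocampus show no overlap between wild type and Q175, while the other 5 overlap. The 10 were drawn because they were called, so little overlap follows in part from that choice. These counts carry no share over all genes.

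Among the transport partners, Hap1, the motor adaptor, had no called change. Its tested changes ran from -0.15 in corpus callosum to 0.35 in intestinal adipose, 7 higher and 3 lower, with a median of 0.11. Its mean over all 11 tissues was 0.18 ± 0.14 (log2, SE, limma-voom adjusted p = 0.59). That mean includes gastrocnemius, where Hap1 had too few counts for its own test. The nearest to a call was cerebellum, where wild-type libraries were at 72.86, 78.98 and 84.8 CPM and Q175 libraries at 69.1, 72.4 and 82.9 CPM (-0.09 ± 0.04, edgeR quasi-likelihood adjusted p = 0.091). In hypothalamus/thalamus, its site of highest expression, Hap1 was 347, 599 and 761 CPM in wild type and 561, 688 and 830 CPM in Q175. The difference of 0.28 ± 0.12 (log2, SE) had an edgeR quasi-likelihood adjusted p of 0.31, and an approximate 95% interval of 0.05 to 0.51.

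The clathrin adaptors were each called once, both higher. Hip1r, which couples coated pits to actin, rose in brainstem: wild type was at 70.4, 77.2 and 78.6 CPM, and Q175 at 79.8, 86.3 and 96.6 CPM. The groups did not overlap, with 8 of 8 Q175 libraries above each wild-type library, and the change was 0.20 ± 0.04 (log2, SE; edgeR quasi-likelihood adjusted p = 0.0078). Brainstem markers of oligodendrocytes ran from 7087 to 9556 FPKM in wild type and 5738 to 7818 in Q175, which overlap, and neuron markers from 2908 to 3362 against 2893 to 3260.

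Hip1 rose in cerebellum, from 82.5, 85.1 and 92.3 CPM in wild type to 92.1, 93.2 and 99.8 CPM in Q175. The ranges met at their edge, with 6 of 8 Q175 libraries above each wild-type library, and the change was 0.13 ± 0.03 (log2, SE; edgeR quasi-likelihood adjusted p = 0.0016). In brainstem Hip1 had a change of 0.23 ± 0.08 that was not called (edgeR quasi-likelihood adjusted p = 0.19), and its lowest library there, WT female 3 at 58.18 CPM, was one that fell with length (slope -0.243). In skin it had -0.53 ± 0.20 (adjusted p = 0.11), where summed skin epithelium markers were 5811 to 12350 FPKM in wild type and 14090 to 18620 in Q175, a shift whose part was not tested.

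Zdhhc17, the huntingtin palmitoyltransferase, rose by little in cerebellum. Wild type was at 195, 200.1 and 203.5 CPM and Q175 at 201.3, 212 and 215 CPM, with 7 of 8 Q175 libraries above each wild-type library. The change was 0.08 ± 0.02 (log2, SE), or 5.43%, with an edgeR quasi-likelihood adjusted p of 0.0099. In the other 10 tissues its changes ran from -0.10 to 0.14 and none was called.

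F8a, which encodes HAP40, was called in opposite directions in cerebellum and gonadal adipose. In cerebellum it rose from 8.14, 9.08 and 10.4 CPM in wild type to 9.33, 10.7 and 11.96 CPM in Q175, with 4 of 8 above each wild-type library; the change was 0.25 ± 0.06 (log2, SE; edgeR quasi-likelihood adjusted p = 0.0044). In gonadal adipose it fell from 5.23, 7.56 and 9.87 CPM to 4.46, 5.23 and 7.68 CPM, with 3 of 8 below each wild-type library; the change was -0.50 ± 0.14 (log2, SE; adjusted p = 0.013). Its change differed between tissues (limma-voom adjusted p = 0.00015), a call kept in quantile normalization, in limma on FPKM, without the filter on low counts and with each animal left out in turn.

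The gonadal adipose result carries limits. Summed epididymis markers were 83.25 to 2394 FPKM in the 4 Q175 male libraries and at most 3.26 FPKM in the 4 Q175 female and 7 wild-type libraries. Their part in the F8a change was not tested. In females alone the F8a change was -0.41 ± 0.18 (log2, SE) and not called (edgeR quasi-likelihood adjusted p = 0.21). With the library code as a term it was -0.31 (adjusted p = 0.29), and limma on log2(FPKM + 1) gave -0.24 (adjusted p = 0.064).

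Sh3gl3, the endophilin, rose in hippocampus. Wild type was at 22.4, 24.6 and 26.2 CPM and Q175 at 27.15, 28.01 and 33.54 CPM, and 8 of 8 Q175 libraries stood above each wild-type library. The change was 0.23 ± 0.05 (log2, SE; edgeR quasi-likelihood adjusted p = 0.012). The highest library, Q175 female 1, was 1 of the 2 that fell with length, and without both the change was 0.18 ± 0.04 (adjusted p = 0.0092). With the length trend removed from each library it was 0.14 ± 0.05 and not called (adjusted p = 0.08).

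In the same hippocampus libraries, summed forebrain excitatory neuron markers were lower in Q175 without overlap, at 1232 to 1399 FPKM against 1460 to 1685 in wild type, and oligodendrocyte markers overlapped. The part of the lower neuron markers in the Htt and Sh3gl3 changes was not tested. The Sh3gl3 change differed between tissues (limma-voom adjusted p = 0.045), a call lost in quantile normalization (0.07), in limma on FPKM (0.24) and without the filter on low counts (0.1).

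Sex was tested in the same fits. Hip1r differed between males and females in 3 tissues. In gastrocnemius the 4 wild-type males were at 12.3, 13.1, 16.2 and 16.4 CPM and the 4 wild-type females at 7.19, 7.52, 7.94 and 8.37 CPM, without overlap. The difference was 0.77 ± 0.13 (log2 male over female, SE; edgeR quasi-likelihood adjusted p = 0.0011), and 0.90 ± 0.11 in wild type alone (adjusted p = 0.003). In brown adipose Hip1r was lower in males (-0.70 ± 0.16, adjusted p = 0.012), and wild type alone gave -0.83 with an adjusted p of 0.34.

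In gonadal adipose Hip1r was higher in males by 0.40 ± 0.11 (edgeR quasi-likelihood adjusted p = 0.016), but wild type alone gave 0.09 (adjusted p = 0.74), and the 4 Q175 males with epididymal transcripts, at 25.6 to 33.9 CPM, stood above the other 11 libraries. Htt in gastrocnemius was 0.20 ± 0.05 higher in males (adjusted p = 0.0069), and 0.18 in wild type alone (adjusted p = 0.17). No other sex difference among the 7 genes was called. Sex was called for 8.7% of genes in brown adipose, 29.8% in gonadal adipose, 14.1% in gastrocnemius and 11.4% in heart. The shares were 1.82% for skin and 0.162% for intestinal adipose. Among brain regions cerebellum had 0.456%, brainstem 0.109%, hypothalamus/thalamus 0.102%, hippocampus 0.092% and corpus callosum 0.0786%.

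The change in Q175 was not shown to differ between the sexes for any of the 7 genes in any tissue. The largest interactions were in gonadal adipose, Hap1 at 2.11 ± 0.50 (log2 male change minus female change, SE; edgeR quasi-likelihood adjusted p = 0.088) and Sh3gl3 at 2.62 ± 0.75 (adjusted p = 0.15), where the Q175 males held epididymal transcripts. Sh3gl3 was low in gonadal adipose, at 0.109 to 1.38 CPM over the libraries. Its highest wild-type library, WT female 4, stood apart at 0.766 FPKM, with the next at 0.261. The interaction was called for 0.231% of genes there and 0.0% in each of the other 10 tissues, where 244 to 3532 genes had an unadjusted p below 0.05.

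Markers of other cells moved with several of the 7 genes inside single tissues. In intestinal adipose, summed lymph node markers ran from 6.64 to 892 FPKM, with 5 libraries at 323 or below and 11 at 543 or above. The 5 low libraries held the 5 lowest Hap1 levels, 0.755 to 4.93 FPKM against 8.49 to 14.6 in the 11, and likewise the 5 lowest Hip1r levels, 4.50 to 15.97 against 20.2 to 29.3. Pearson r with these markers was also 0.91 for Sh3gl3, 0.85 for F8a, 0.74 for Zdhhc17 and 0.71 for Htt. Their permutation adjusted p ran from 0.0001 to 0.0044. For Hip1, r was -0.46 (permutation adjusted p = 0.1) and rho -0.53 (0.046). Within the 11 libraries r was 0.48 for Sh3gl3, 0.51 for F8a, 0.63 for Zdhhc17 and 0.16 for Htt. With the marker sum as a term, chosen after the values were seen, the Hap1 change in Q175 was 0.04 ± 0.11 in place of 0.35 ± 0.45 (log2, SE), with no call in either fit.

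In corpus callosum, summed oligodendrocyte markers ran from 12880 to 28650 FPKM over the 16 libraries. Sh3gl3 rose with them (Pearson r = 0.93, permutation p = 1e-05, the smallest that 100000 permutations can give; Spearman rho = 0.88, permutation p = 3e-05), with adjusted p of 4.7e-05 and 0.00017 over 14 relations computed. It was 0.86 without the 2 libraries farthest from the median, 0.98 in wild type and 0.85 in Q175. Hap1 fell with them (r = -0.84, permutation p = 4e-05, adjusted 0.00011; rho = -0.86, permutation p = 5e-05, adjusted 0.00017), at -0.86 without the 2 farthest, -0.91 in wild type and -0.72 in Q175. In this tissue the Sh3gl3 and Hap1 levels thus varied with the oligodendrocyte transcripts of the library, in opposite directions. More weakly, Zdhhc17 rose (rho = 0.61, permutation adjusted p = 0.022) and Htt fell (rho = -0.56, permutation adjusted p = 0.038). Their Pearson r was 0.54 and -0.47 (permutation adjusted p = 0.05 and 0.087). For Htt, r was -0.70 in wild type and -0.06 in Q175. Hip1, Hip1r and F8a had no adjusted p below 0.05.

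**Figure D5:**
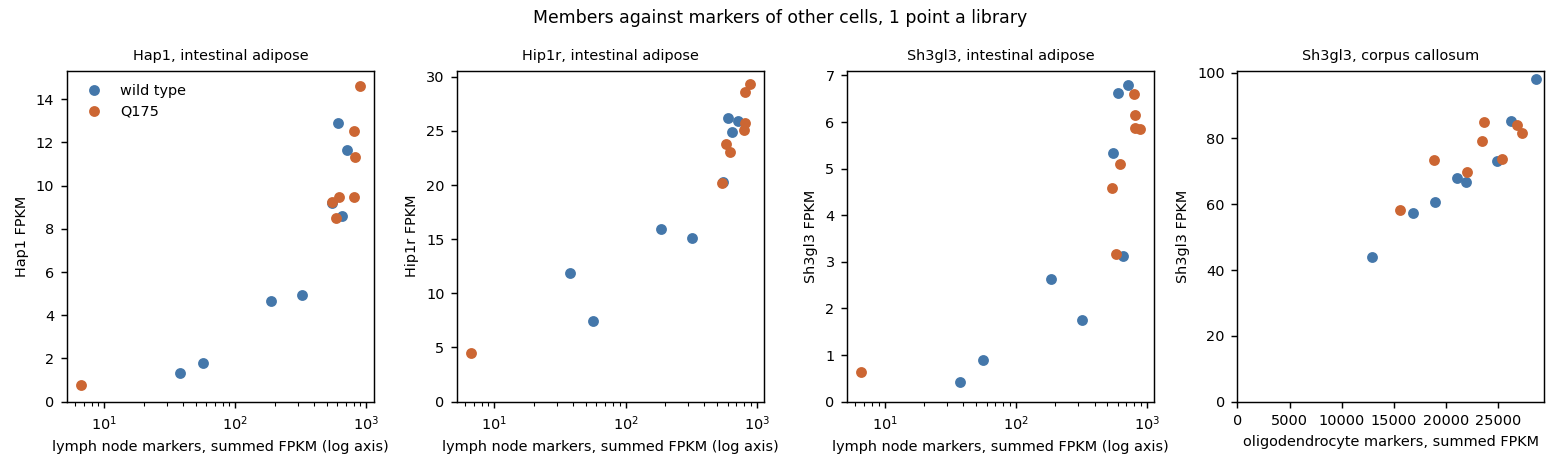
FPKM of Hap1, Hip1r and Sh3gl3 against summed lymph node markers in intestinal adipose (log axis), and of Sh3gl3 against summed oligodendrocyte markers in corpus callosum; 1 point is 1 library, blue wild type and orange Q175. In intestinal adipose the 5 libraries at 323 FPKM of lymph node markers or below hold the lowest Hap1 and Hip1r; in corpus callosum Sh3gl3 climbs from 44.04 to 97.9 FPKM.

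The wider pathway was followed in 6 lists of 69 genes in all. Counted over tissues, 6 higher and 7 lower changes were called among 181 tested for the motor and cargo proteins that bind Hap1 or huntingtin, 7 and 7 of 170 for clathrin coat and endocytic proteins, and 3 and 2 of 53 for the partner and substrates of Zdhhc17. The nuclear proteins that bind huntingtin had 3 and 2 of 110, endosomal small GTPases 0 and 1 of 55, and proteins that modify or signal to huntingtin 3 and 9 of 164. By tissue, the called genes were 11 higher and 7 lower of 69 in cerebellum (26.1%, beside 16.1% of all genes), 0 and 6 of 69 in hippocampus (8.70%, beside 4.56%) and 8 and 7 of 67 in gonadal adipose (22.4%, beside 32.1%). Skin had 2 and 4 of 65 (9.23%, beside 6.53%), brown adipose 0 and 4 of 62 (6.45%, beside 5.41%) and brainstem 1 and 0 of 69 (1.45%, beside 3.07%). The counts of each list pool these tissues, so they are read only beside these shares. None was called in the other 5 tissues, which include heart and gastrocnemius. In hippocampus the median change was -0.08 for the motor and cargo list, -0.05 for endocytic proteins, -0.12 for Zdhhc17 substrates, -0.11 for nuclear proteins, 0.08 for endosomal GTPases and 0.01 for modifying and signalling proteins, beside 0.01 for all genes (log2); in cerebellum the list medians ran from -0.02 to 0.03.

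Markers of other cells moved with these calls, and their part in them was not tested. In Q175, forebrain excitatory neuron markers were lower in hippocampus and cerebellar neuron markers lower in cerebellum, both without overlap, and the gonadal Q175 males held epididymal transcripts, with the values given above. In skin, where Itpr1, Cltb and Pfn2 were called, skin epithelium markers were higher in Q175 without overlap, with the values given with Hip1. The skeletal muscle markers of brown adipose, where Dnm1 and Pfn2 fell, are given with Pfn2. Another limit holds for the hippocampus calls, which include Sort1, Dnm1, Dlg4, Tbp and Rasd2. There Q175 female 4 (slope -0.323) and Q175 female 1 (slope -0.234) had lower counts for longer transcripts, and both stayed in the fits. The part of these 2 libraries in the hippocampus calls and list medians was not tested. The genes called over all genes fell from 1077 to 263 in skin and from 5148 to 561 in gonadal adipose with the library code as a term; the list genes were not refitted in this way.

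Among motor and cargo genes, Trak2, a kinesin adaptor for mitochondria, rose in brainstem from 201.3, 260.5 and 300.0 CPM to 272, 311.5 and 335 CPM (0.26 ± 0.06 log2, SE; edgeR quasi-likelihood adjusted p = 0.027) and in cerebellum by 0.08 (adjusted p = 0.0063). Sort1, the sortilin receptor that sorts BDNF, fell in hippocampus from 756, 790.0 and 824 CPM to 442.5, 664 and 699.6 CPM (-0.36 ± 0.08; adjusted p = 0.014), without overlap, and in cerebellum by 0.10. Itpr1, the inositol trisphosphate receptor, was called in opposite directions in gonadal adipose (0.52, adjusted p = 0.017) and skin (-0.71, adjusted p = 0.028).

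Among endocytic genes, Dnm1, the neuronal dynamin that cuts vesicles free, fell in hippocampus from 1120, 1146 and 1227 CPM to 913, 1025 and 1068 CPM (-0.20 ± 0.04 log2, SE; edgeR quasi-likelihood adjusted p = 0.0057). It also fell in cerebellum (-0.09) and brown adipose (-0.94), and rose in gonadal adipose (0.86). Amph, a binding partner of dynamin and clathrin, rose in cerebellum from 178.5, 187.5 and 194 CPM to 208, 217 and 220.2 CPM, without overlap (0.20 ± 0.02; adjusted p = 3.4e-06). Cltb, a clathrin light chain, fell in cerebellum (-0.09, adjusted p = 0.018) and rose in skin (0.33, adjusted p = 0.038).

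Among substrates of Zdhhc17, Dlg4, the postsynaptic scaffold PSD-95, fell in hippocampus from 656, 707.8 and 747.5 CPM to 605, 621 and 655 CPM (-0.17 ± 0.03 log2, SE; edgeR quasi-likelihood adjusted p = 0.0066). It fell by 0.06 in cerebellum and rose by 0.35 in gonadal adipose. Syt1, the synaptic calcium sensor, rose in cerebellum by 0.16 (adjusted p = 0.00059), as did Zdhhc13, the closest relative of Zdhhc17, by 0.14 (adjusted p = 0.029).

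Of the nuclear partners, Ncor1, a corepressor, rose in cerebellum from 281, 327 and 342 CPM to 325.5, 356 and 371 CPM (0.14 ± 0.04 log2, SE; edgeR quasi-likelihood adjusted p = 0.013). Tbp, the TATA-binding protein, fell in hippocampus by 0.17 (adjusted p = 0.0087). Among modifying proteins, Rasd2, the striatal GTPase Rhes, fell in cerebellum from 24.2, 25.6 and 31.45 CPM to 14.9, 20.3 and 24.9 CPM (-0.42 ± 0.07; adjusted p = 0.00038) and in hippocampus by 0.19 (adjusted p = 0.03). Rasa1, a Ras GTPase-activating protein, rose in cerebellum (0.11) and gonadal adipose (0.22), and Pfn2, an actin-binding profilin, fell in brown adipose (-1.3) and skin (-0.46). In brown adipose, skeletal muscle markers ran from 7.98 to 7316 FPKM in wild type and 1.42 to 309.8 in Q175. Rab5a, the early endosome GTPase, fell in gonadal adipose by 0.17 (adjusted p = 0.024), and its paralogs Rab5b and Rab5c were called in no tissue.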

How the data were processed

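The members, the pathway lists and the marker lists were chosen with earlier results of these data known. PolyA libraries of 11 tissues were read on Illumina instruments. The authors deposited estimated counts per gene, of which 16.6% are not whole and were rounded here, and FPKM per gene; per the submitters' processing notes CASAVA 1.8.2 was used, and for the aligner, counter, genome build and annotation the step is not given in the sources used here. Symbols were matched to 36639 of 38561 gene identifiers (95.0%). Libraries held 27.98 to 48.02 M counts (M for mega).

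Per tissue, edgeR 4.0.16 (R 4.3.3) was run on the counts with trimmed-mean scaling, its filter on low counts, sex and genotype as terms, robust quasi-likelihood fits and Benjamini-Hochberg adjustment at 0.05. Changes over tissues used limma 3.58.1 (voom) with the animal as a random effect (correlation 0.03). Levels were compared in wild type by edgeR and by limma on log2(FPKM + 0.1). DESeq2 1.42.0, limma on log2(FPKM + 1), other terms and filters and left-out libraries were run as alternatives. The edgeR fit of genotype in each tissue, the limma-voom fit over tissues and the edgeR fit of levels were tested on simulated counts. Those counts held no animal effect. The limma fits on FPKM, DESeq2, the other alternatives and the tests of sex and interaction were not tested in this way. Replicate numbers pair no animals. The p-values for genotype and sex within a tissue measure the spread between these animals. Those of the fit over tissues treat libraries of the same animal as nearly independent, with the correlation of 0.03 shared by all genes.

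The text names the 7 genes in each tissue, the 3 genes of each pathway list called in most tissues (ties by adjusted p), and the 3 genes most like each of the 7 over tissues. A gene that this rule names is not reported here. Promoter windows are from RefSeq and the Htt exon from the GRCm38 annotation. Counts limit the precision for Hap1 and Sh3gl3 in muscle and for Sh3gl3 in gonadal adipose.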

Additional observations from a re-analysis of the deposited data

Results flagged for a closer look

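In 154 groups of libraries (1 gene, tissue and genotype), Dixon's test at its 95% level set 21 libraries apart, where chance alone sets about 1 in 20 groups apart; each value is FPKM, with the animal named as in the report.

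For Htt, 8 libraries stood apart. WT female 3 was low at 7.63 in brainstem and 6.45 in corpus callosum, and WT male 1 was low at 21.1 in cerebellum, 11.4 in hypothalamus/thalamus and 1.36 in brown adipose but high at 6.90 in gonadal adipose. Q175 female 2 was low at 2.87 in gonadal adipose, and Q175 female 1 was high at 6.01 in skin. The brainstem and brown adipose libraries, both lowest of wild type, are those without which the Htt change there passed the threshold.

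For the partners, WT female 4 was high in Hap1 (0.383) in brown adipose and in Sh3gl3 (0.766) in gonadal adipose, and Q175 male 4 was high in Hap1 (0.421) in brown adipose. In intestinal adipose Q175 male 4 was low in Hap1 (0.755), Hip1r (4.50) and Zdhhc17 (8.18), and this library also had the lowest lymph node marker sum, 6.64. WT female 3 was low in Hip1 (7.41) in brainstem, Q175 male 3 was high in Hip1r (4.23) in gastrocnemius, and Q175 male 4 was low in Zdhhc17 (26.5) in corpus callosum. Zdhhc17 of Q175 male 2 in cerebellum was 45.7. F8a of Q175 female 4 in hypothalamus/thalamus was 7.96, Sh3gl3 of Q175 female 2 in brainstem was 17.7, and Sh3gl3 of Q175 female 1 in hippocampus was 22.2.

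The change in Q175 differed between tissues for F8a (limma-voom adjusted p = 0.00015, higher in cerebellum and lower in gonadal adipose) and for Sh3gl3 (0.045), among 42% of all genes.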

How the results depend on the processing

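Of the 10 called changes, 79 of 93 values under alternatives other than leaving out 1 library, and 146 of 159 with 1 library left out, stayed past the threshold, and none reversed; the uncalled pairs gained a call in 11 of 624 and 5 of 1020. The replicate numbers pair no animals (33 of 85 same-numbered pairs correlated above 0.1, 28 were closest to their own number). With the replicate block, the Htt call was lost in hippocampus (-0.62), leaving 1 member called, and in gastrocnemius (-0.40), leaving 0, and the block changed no other call among the 7 genes' changes in Q175.

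Genes called over the alternatives, with the reported count first, were 509 (282 with the replicate block to 719 by DESeq2) in brainstem, 2572 (2136 to 2772) in cerebellum, 743 (387 with the library code to 1277 by DESeq2) in hippocampus, 96 (12 with the block to 325 by DESeq2) in hypothalamus/thalamus, 9 (0 with the block to 193 by DESeq2) in corpus callosum and 790 (170 with the block to 1205 by DESeq2) in brown adipose. They were 5148 (561 with the library code to 6000 by DESeq2) in gonadal adipose, 0 (to 10 by DESeq2) in intestinal adipose, 3 (0 without the sex term to 16 by DESeq2) in gastrocnemius, 8 (3 with the library code to 75 by DESeq2) in heart and 1077 (0 with the block to 2722 by DESeq2) in skin.

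In hippocampus the Htt call was lost, leaving 1 member, without the low-count filter (-0.57), without the sex term (-0.55), with the library code (-0.58), in limma on FPKM (-0.56) and without Q175 male 3 (-0.58); with the length trend removed Sh3gl3 (0.14) was lost and Htt kept, again leaving 1. Leaving out 1 library gave 1 to 2, with Htt from -0.69 to -0.48. In gastrocnemius the Htt call was lost, leaving 0, without the sex term (-0.40), with the library code (-0.40) and in limma on FPKM (-0.20). In gonadal adipose the F8a call was lost, leaving 0, with the library code (-0.31) and in females only (-0.41); 3 were called in limma on FPKM (F8a -0.24 lost), and 2 with the length trend removed, with 1 to 2 when 1 library was left out. With the length trend removed, 2 were called in brainstem (also 2 with the library code; 1 to 2 with 1 library left out) and 1 each in hypothalamus/thalamus, corpus callosum and brown adipose (0 to 1 with 1 left out). Without the 4 libraries that fall with length 1 was called in hypothalamus/thalamus, and by DESeq2 1 in corpus callosum. In wild type alone, sex differences numbered 0 in brown adipose (Hip1r -0.83), 0 in gonadal adipose (Hip1r 0.09) and 1 in gastrocnemius (Htt 0.18 lost).

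The adjusted p for a difference between tissues in limma on FPKM was 0.039 for Htt, 0.015 for Hip1, 0.0019 for Zdhhc17 and 0.24 for Sh3gl3, and for Sh3gl3 0.07 with quantile normalization and 0.1 without the filter. With 1 animal left out it ran from 0.027 to 0.25 for Htt, 0.011 to 0.88 for Hap1, 0.0054 to 0.38 for Hip1, 0.042 to 0.9 for Hip1r, 0.02 to 0.33 for Zdhhc17 and 0.002 to 0.26 for Sh3gl3. Called neighbours of Htt numbered 7 in both FPKM fits (pseudocounts 0.1 and 1) and 2 to 7 with 1 wild-type animal left out of each tissue, and those of Sh3gl3 3 with pseudocount 1. The cause of these changes was not tested.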
